A study of Homo sapiens with 4 samples.

Results

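The 10 genes described here encode enzymes that make or break down eicosanoids, and they were chosen by name out of the 58735 genes measured. They are PLA2G4A, PLA2G4C, ALOXE3, PTGS1, PTGS2, PTGES, PTGES2, PTGES3, PTGR1 and LTA4H. The choice was made with the ratios of these same libraries in view, those of PLA2G4C and ALOXE3 among them, so the ratios below are a description and no test was run on them. RNA was sequenced from U251 and U87, 2 established human glioblastoma (GBM) cell lines, each as a culture labelled control (Control) and as one labelled BRU, treated with brusatol (Bru). Brusatol is a quassinoid from Brucea seeds, and the cells received it for 48 h at the IC50, while the concentration for each RNA library and the treatment of the Control cells are not given in the sources used here. Each condition had 1 library, so that 4 libraries were compared, no difference has a replicate check and the labels name no batch.

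Eicosanoids are signalling lipids made from arachidonate, a polyunsaturated fatty acid stored in membrane phospholipids. Phospholipases A2 release it, and it then enters the cyclooxygenase branch, which gives prostaglandins, or the lipoxygenase branch, which gives hydroperoxides and leukotrienes. In glioma, prostaglandin E2 made through cyclooxygenase-2 is known for its links to growth, invasion and immune evasion.

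Levels are given as FPKM, fragments counted on a gene, scaled by gene length and library size, so that fewer expressing cells and less RNA per cell cannot be told apart. Multiplied by gene length, every FPKM was a whole number of steps of one size per library (tolerance 0.01 reads), and dividing by the step returned each gene's fragment number, given as reads below. Genes held between 17083896 and 21453561 reads per library, and 3 reads on a gene of 1 kilobase, taken as the smallest number this depth can show, came to an FPKM of 0.143 to 0.172. Intervals are exact 95% intervals of the read numbers, and with 1 library per condition they cover counting error only. No molecular identifiers were used, so copies of the same fragment may be counted as separate reads. The intervals may therefore be too narrow even for counting error. Of 7 astroglial and glioblastoma markers, 6 had an FPKM of at least 1 in each U251 library, 4 in U87 Control and 3 in U87 Bru. SOX2 stood at an FPKM of 129 in U251 Control and had 0 reads in U87 Control, and S100B had 0 reads in U251 Bru and in both U87 libraries. Of the 5 myeloid, 4 endothelial and 4 oligodendroglial markers at most 1 per list reached an FPKM of 1 in any library, and summed FPKM ran from 0.529 to 1.92 for the myeloid list, from 0.891 to 4.42 for the endothelial and from 0.0593 to 1.33 for the oligodendroglial list, with AIF1 and MOG at 0 reads throughout. Among the 4 neuronal markers, 1 to 2 reached it, with sums from 5.17 to 8.52. The 5 keratinocyte markers, which bear on ALOXE3, summed to between 18.6 and 26.7, nearly all of it KRT10, and KRT5, KRT14 and DSG1 were at an FPKM of 0 to 0.0377, while IVL had 0 reads in U251 and 20 in each U87 library. The part of any of these in the results was not tested.

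Reference bases upstream of 3 member genes are printed. The genes were picked by their values, ALOXE3 and PTGS2 for U251 ratios in opposite directions and PTGES for its contrast between the lines. No level or ratio below uses these bases, and a link between them and the values was not tested. The RefSeq promoter table (GRCh38.p14) held 14 windows for 9 of the 10 genes, and PLA2G4C was not among them. For each gene the start site whose 250-base window had the longest exon-free stretch was taken, and that run (exons of GENCODE 29) is shown on the gene's strand, 5′ to 3′, with motif matches in capitals. The runs are chr17:8118515-8118695 (minus strand, ending at the base before the start site, in an intron of the longer ALOXE3 transcript), chr1:186680428-186680621 (minus strand) and chr9:129753048-129753292 (minus strand).
ALOXE3: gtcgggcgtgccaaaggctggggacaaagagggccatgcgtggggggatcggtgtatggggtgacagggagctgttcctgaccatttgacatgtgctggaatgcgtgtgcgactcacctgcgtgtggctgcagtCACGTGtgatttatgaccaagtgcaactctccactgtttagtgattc
PTGS2: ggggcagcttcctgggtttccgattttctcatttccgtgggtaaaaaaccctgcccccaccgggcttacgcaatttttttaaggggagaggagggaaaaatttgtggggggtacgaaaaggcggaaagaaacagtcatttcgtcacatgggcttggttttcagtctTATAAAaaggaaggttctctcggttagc
PTGES: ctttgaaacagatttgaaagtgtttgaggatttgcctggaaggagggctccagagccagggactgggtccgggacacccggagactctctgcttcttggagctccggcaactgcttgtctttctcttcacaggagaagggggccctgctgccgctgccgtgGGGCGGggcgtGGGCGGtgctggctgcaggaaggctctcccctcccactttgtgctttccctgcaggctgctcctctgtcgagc
Motifs searched on both strands were the TATA box (TATAAA), the cyclic AMP response core (TGACGTCA), the E-box (CACGTG), the AP-1 site (TGANTCA), the antioxidant response core (TGACNNNGC), an NF-kB site (GGG and TCC with NNNN between them), the CCAAT box (CCAAT) and the GC box (GGGCGG). The ALOXE3 run held 1 E-box, 47 to 42 bases before the start, and an E-box stood in 6.34% of all 35116 windows. The window of the ALOXE3 start site at 8118303 held 6 matches, to the AP-1 site, antioxidant response core, CCAAT box and GC box. Those motifs stood in 6.57%, 10.9%, 32.0% and 42.6% of all windows, in that order. Of its bases 210 were in exons, and the window of the start site at 8118916 held 0 matches. The PTGS2 run held 1 TATA box, 32 to 27 bases before the start, a motif present in 10.7% of all windows. Its full 250-base window also held an NF-kB site, 223 to 214 bases before the start, in exon bases not printed here. A CCAAT box, 201 to 197 bases before the start, lay partly in those bases. These 2 motifs stood in 19.9% and 32.0% of all windows. The PTGES run held 2 GC boxes and no TATA box, and a GC box stood in 42.6% of all windows. All these shares are over full 250-base windows, exons included. The printed runs are shorter, so a share is not a like comparison for a run. A match is a run of letters and says nothing of a bound factor.

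PLA2G4A and PLA2G4C are the phospholipases of the set. PLA2G4A (ENSG00000116711, chromosome 1 from 186828953 to 186988981) encodes the calcium-dependent cytosolic phospholipase A2 alpha, the main enzyme that frees arachidonate for eicosanoids. Its FPKM was 2.47 (Control) and 2.31 (Bru) in U251, against 2.89 (Control) and 1.78 (Bru) in U87. The U87 Bru library was the lowest of the 4, and the intervals of neighbours in the order of levels all included no difference. Without a pseudocount, Bru over Control gave a log2 ratio of -0.10 in U251 (interval from -0.45 to 0.26) and -0.70 in U87 (from -1.09 to -0.31).

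PLA2G4C (ENSG00000105499, chromosome 19 from 48047843 to 48110817, 6613 bases of exons) encodes the calcium-independent, membrane-anchored cytosolic phospholipase A2 gamma. In U251 it had 9 reads in Control (FPKM 0.0649) and 152 in Bru (FPKM 1.24), and in U87 it had 78 in Control (0.653) and 148 in Bru (1.29). U251 Control stood below the other 3 libraries, and both Bru libraries lay at the same level within counting error, with a log2 difference of 0.05 (interval from -0.28 to 0.39). Bru over Control came to a log2 ratio of 4.26 in U251 (from 3.29 to 5.41), a 19.1-fold higher FPKM, and 0.98 in U87 (from 0.57 to 1.39), a 1.97-fold higher FPKM. On FPKM + 0.1, the scale used for counts of genes, it was 3.02 and 0.88, and 168 of the 22194 genes whose mean FPKM reached 0.1 had a larger ratio in U251 and 1886 in U87. With a pseudocount of 1 the values were 1.07 and 0.47. The antisense gene PLA2G4C-AS1, which overlaps it, had at most 3 reads in any library, and the strand setting of the counting is not given in the sources used here. Of the 50-base stretches of its annotated transcripts, 3.55% also occur in transcripts of other genes, most of them in PLA2G4C-AS1.

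PTGS1 and PTGS2 encode the cyclooxygenases, PTGS1 the largely constitutive enzyme and PTGS2 (cyclooxygenase-2) the inducible one. PTGS1 (ENSG00000095303) was near the detection floor, with 6 reads in both U251 libraries and, in U87, 7 in Control against 2 in Bru, too few to show a difference. PTGS2 (ENSG00000073756, chromosome 1 from 186671791 to 186680427) had 123 reads in Control (FPKM 1.11) and 48 in Bru (FPKM 0.492) of U251, and 77 in Control (0.809) and 64 in Bru (0.698) of U87. U251 Control was the highest and U251 Bru the lowest, with both U87 libraries between them, and U251 Bru, U87 Bru and U87 Control followed each other with steps inside counting error. The log2 ratio of PTGS2 was -1.18 in U251 (interval from -1.69 to -0.69) and -0.21 in U87 (from -0.71 to 0.28), an interval that includes 0. On FPKM + 0.1 its U251 log2 ratio was -1.04, just past the 2-fold limit, and it was no longer past it with reads scaled by their total (-0.96), with 75th percentile scaling (-0.96) or with a pseudocount of 1 (-0.50). PTGS2 and PLA2G4A lie on the same chromosome with 148525 bases between them and no protein-coding gene in the gap, and they stood on opposite strands.

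**Figure D1:**
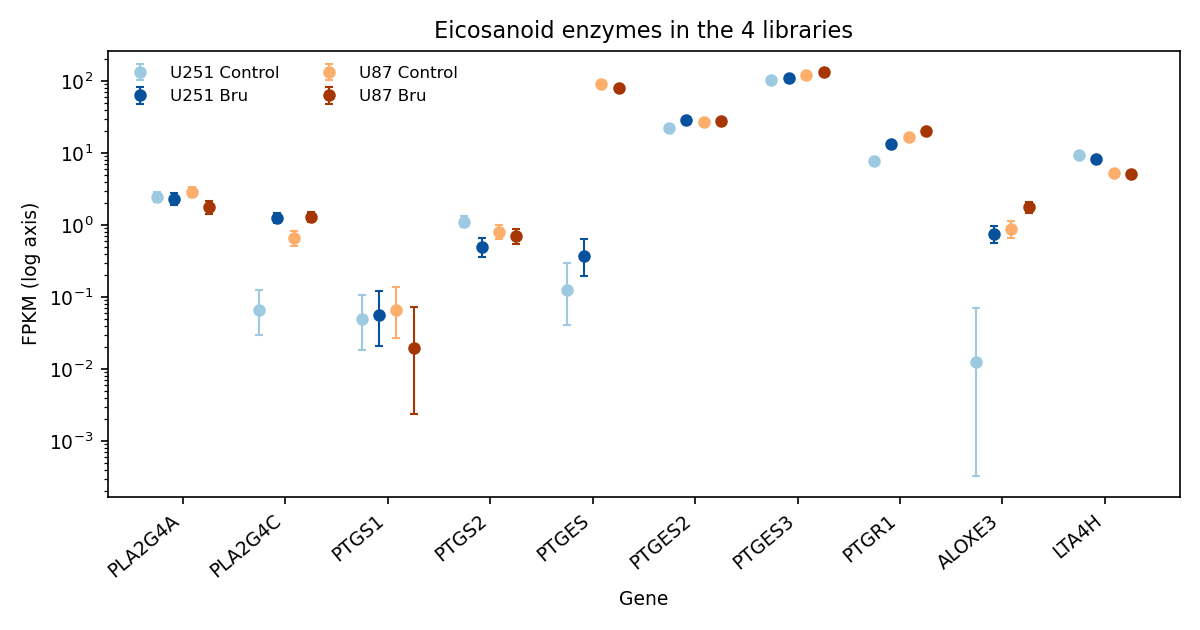
FPKM (log axis) of the 10 eicosanoid enzymes in the 4 libraries, with 1 point per library and bars for the exact 95% Poisson interval of its reads, which covers counting error only. PLA2G4C and ALOXE3 were at 0.0649 and 0.0127 in U251 Control and at 0.653 or more in the other 3 libraries, while PTGES differed far more between lines than between treatments.

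Prostaglandin E synthases convert the cyclooxygenase product prostaglandin H2 to prostaglandin E2. PTGES (ENSG00000148344, chromosome 9 from 129738331 to 129753047) encodes the inducible microsomal synthase that is usually coupled to PTGS2. U251 had 5 reads in Control (FPKM 0.126) and 13 in Bru (FPKM 0.370), whereas U87 had 3086 in Control (90.1) and 2679 in Bru (81.2). The lines did not overlap, and the U87 Control level was 716-fold that of U251 Control, a log2 ratio of 9.48 (interval from 8.26 to 11.1). Only 5 of those 22194 genes had a larger ratio of U87 Control to U251 Control on FPKM + 0.1. For Bru over Control it was 1.56 in U251 (from -0.02 to 3.40), an interval that includes 0, and -0.15 in U87 (from -0.23 to -0.07). On FPKM + 0.1 the U251 log2 ratio was 1.06, past the 2-fold limit, and with a pseudocount of 1 it was 0.28.

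PTGES2 (ENSG00000148334, chromosome 9 from 128120693 to 128128462), the second microsomal synthase, and PTGES3 (ENSG00000110958, chromosome 12 from 56663341 to 56688408), the cytosolic synthase that is also the HSP90 co-chaperone p23, were at similar levels in both lines. PTGES2 FPKM was 22.4 (Control) and 28.9 (Bru) in U251, and 26.6 (Control) and 27.4 (Bru) in U87, with log2 ratios of 0.37 in U251 (from 0.26 to 0.47) and 0.05 in U87 (from -0.06 to 0.15). PTGES3 FPKM was 102 (Control) and 110 (Bru) in U251, and 122 (Control) and 135 (Bru) in U87, with log2 ratios of 0.10 in U251 (from 0.06 to 0.15) and 0.15 in U87 (from 0.10 to 0.20). Of the 50-base stretches of PTGES3 transcripts, 7.40% also occur in other genes, most of them in the pseudogenes PTGES3P1 and PTGES3P3, so part of its reads is uncertain. Of 8 copies and partners of PTGES3, HSP90AA1 and HSP90AB1 among them, 5 had a mean FPKM of 1 or more and none of these was past 2-fold in either line. Of all genes at that minimum, 8.8% were past 2-fold in U251 and 3.34% in U87. In summed FPKM of the 3 synthases, PTGES made up 0.101% in U251 Control and 0.265% in U251 Bru, against 37.8% (Control) and 33.3% (Bru) in U87. The sum itself was 125 and 139 in U251 and 238 and 243 in U87, so that the larger sum in U87 was mostly PTGES.

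**Figure D2:**
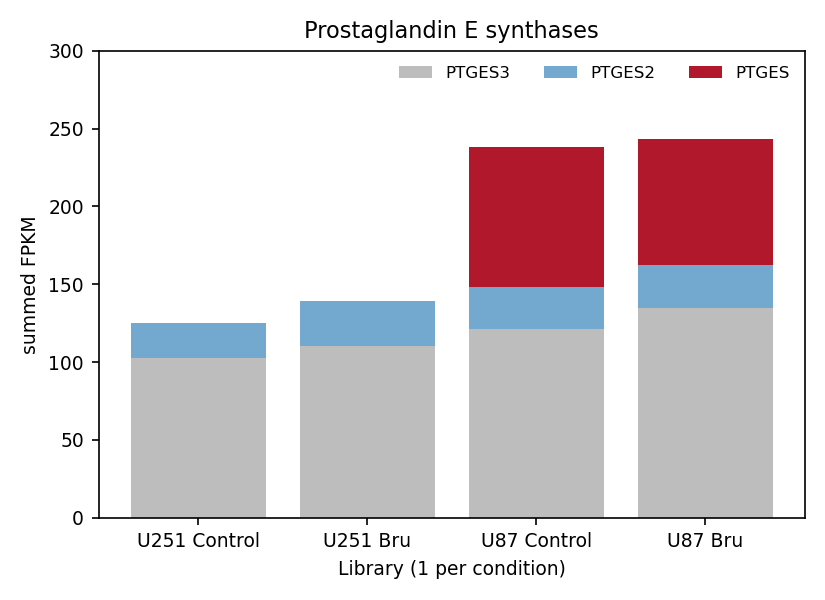
Summed FPKM of the 3 prostaglandin E synthases in each library, 1 library per condition, stacked by gene on an axis that starts at 0. PTGES added 90.1 and 81.2 to the U87 libraries and less than 1 to the U251 libraries, and the PTGES2 and PTGES3 blocks were of similar height in all 4.

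PTGR1 (ENSG00000106853, chromosome 9 from 111549722 to 111599893) encodes prostaglandin reductase 1, which inactivates leukotriene B4 and keto prostaglandins and is a known target of the antioxidant factor NRF2. Its FPKM was 7.85 (Control) and 13.3 (Bru) in U251, then 16.9 (Control) and 20.5 (Bru) in U87, and each step in that order was larger than counting error. Its log2 ratio was 0.76 in U251 (from 0.61 to 0.91) and 0.27 in U87 (from 0.16 to 0.39), and U87 Control was above U251 Control by 1.11 (from 0.97 to 1.25). ZNF483 overlaps PTGR1 on the other strand and had between 15 and 75 reads, against 619 to 1340 for PTGR1.

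ALOXE3 and LTA4H stand for the lipoxygenase branch. ALOXE3 (ENSG00000179148, chromosome 17 from 8095900 to 8119047) encodes epidermal lipoxygenase 3, a hydroperoxide isomerase that turns the product of ALOX12B into hepoxilin-type epoxyalcohols of the skin barrier. U251 had 1 read in Control (FPKM 0.0127) and 52 in Bru (FPKM 0.746), and U87 had 59 in Control (0.868) and 115 in Bru (1.76). U251 Control stood apart at a single read, and U251 Bru and U87 Control did not differ beyond counting error, with a log2 difference of 0.22 (from -0.34 to 0.79). Between Bru and Control the log2 ratio was 5.88 in U251, with a wide interval from 3.34 to 11.2 that comes from the single Control read, and 1.02 in U87, a 2.02-fold higher FPKM (from 1.47 to 2.82). On FPKM + 0.1 the log2 ratios were 2.91 and 0.94, and 187 of the 22194 genes had a larger ratio in U251 and 1761 in U87. With a pseudocount of 1 the U251 value was 0.79 and no longer past 2-fold, and with a pseudocount of 0.01 the U87 value was 1.01 and past it. None of the 50-base stretches of ALOXE3 transcripts occurs in a transcript of another gene.

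ALOX12B, the neighbouring lipoxygenase that supplies the ALOXE3 substrate, had at most 2 reads in any library. Of 11 epidermal barrier genes listed as partners of ALOXE3, such as TGM1, ABCA12 and NIPAL4, only ABHD5 reached a mean FPKM of 1, and of the 6 with a mean of 0.1 or more none was higher past 2-fold in Bru in either line, beside 8.03% of all genes in U251 and 7.33% in U87. TGM5, a transglutaminase, was the 1 gene of the list past the limit in U251, lower in Bru, with 84 reads in Control and 17 in Bru. In U87 it had 4 and 1, and it reached the minimum mean of 0.1 mainly through U251 Control, where its FPKM was 1.10. At the minimum mean of 0.1, 8.76% of all genes were lower past 2-fold in U251 and 5.29% in U87. These genes and ALOX12B are named with their values known. HES7, a transcriptional repressor, is the next gene upstream of ALOXE3, 1542 bases from it on the same strand, and it was looked up after the ALOXE3 values were seen. It had 152 (Control) and 407 reads (Bru) in U251, and 76 (Control) and 112 (Bru) in U87, log2 ratios of Bru to Control of 1.60 (from 1.33 to 1.88) and 0.61 (from 0.18 to 1.05). Unlike ALOXE3, HES7 was higher in U251 Control than in U87 Control, with a log2 ratio of U87 to U251 of -0.79 (from -1.20 to -0.38).

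LTA4H (ENSG00000111144, chromosome 12 from 96000828 to 96043520) encodes leukotriene A4 hydrolase, which makes leukotriene B4. Its FPKM was 9.30 (Control) and 8.13 (Bru) in U251, and 5.28 (Control) and 5.17 (Bru) in U87, so that both U251 libraries lay above both U87 libraries. The log2 ratio was -0.19 in U251 (from -0.31 to -0.08) and -0.03 in U87 (from -0.19 to 0.12). Of the 50-base stretches of LTA4H transcripts, 7.33% also occur in other genes, most of them in AC007298.2. That antisense gene overlaps LTA4H and had at most 1 read in any library, and the strand setting of the counting is not given. ALOX5 and its partner ALOX5AP, which make the substrate of LTA4H, had 0 reads in all 4 libraries and at most 1 read in any library, respectively.

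**Figure D3:**
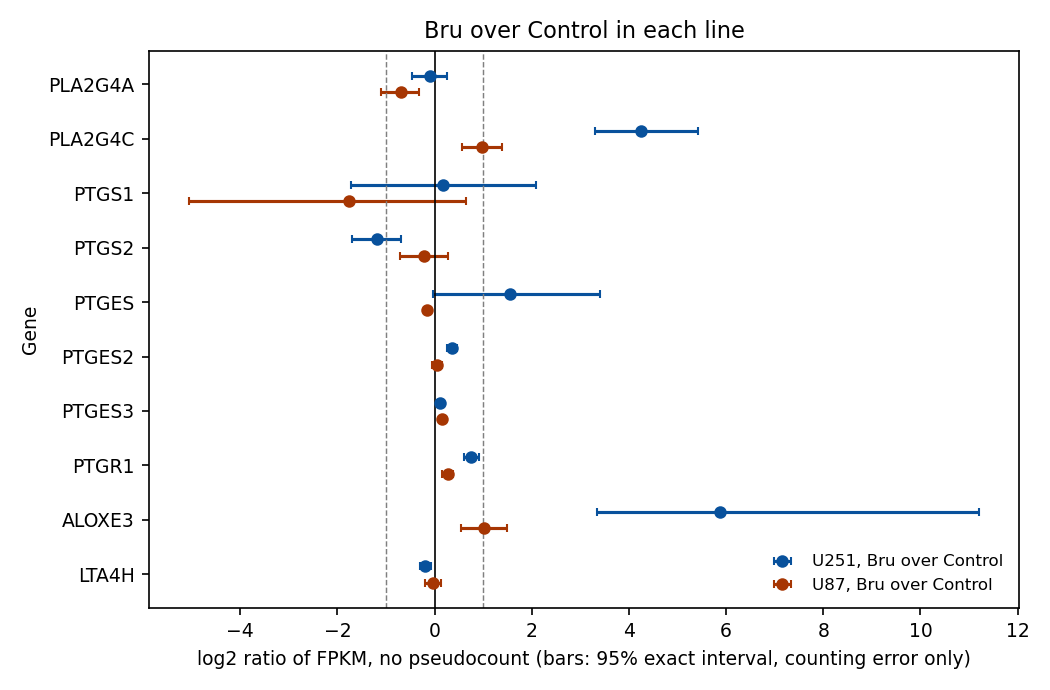
Log2 ratio of FPKM, Bru over Control, for each enzyme in U251 and U87, without a pseudocount, with exact 95% intervals of the reads (counting error only) and dashed lines at 2-fold. PLA2G4C and ALOXE3 lay at 4.26 and 5.88 in U251 and near 1 in U87, PTGS2 lay at -1.18 in U251, and the interval of PTGES in U251 crossed 0.

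The counts of enzymes past 2-fold depended on the filter on low FPKM. Averaged over the libraries, 6 of the 10 enzymes reached an FPKM of 1, and PLA2G4C, ALOXE3, PTGS2 and PTGS1 were below it, the first 3 with means between 0.778 and 0.846. Among these 6, only PTGES was past 2-fold in U251 on FPKM + 0.1 and none was in U87, beside backgrounds in which 8.8% of the 12949 genes that passed the same filter were past 2-fold in U251 (3.36% higher and 5.44% lower) and 3.34% in U87 (1.92% and 1.41%). With a minimum mean FPKM of 0.1, 9 of the 10 passed. Of them PLA2G4C, ALOXE3 and PTGES were higher and PTGS2 lower past 2-fold in U251, beside 16.8% of the 22194 genes (8.03% higher and 8.76% lower), and none was past it in U87, beside 12.6% (7.33% and 5.29%). PTGES reached the mean of 1 through U87 alone, and its U251 value rests on the 5 and 13 reads given above, with an interval that includes 0. Since these ratios entered the choice of the genes, nothing is read from the counts. For the 6 enzymes the median on the log2 scale was 0.23 (U251) and 0.01 (U87), against -0.03 and -0.04 over the 12949 genes. Between the Control libraries, PTGES and PTGR1 of the 6 were past 2-fold, both higher in U87, beside 30.4% of genes past it (14.5% higher and 16% lower). With the lower filter PLA2G4C and ALOXE3 joined them, again higher in U87 Control, by log2 ratios without a pseudocount of 3.33 (from 2.33 to 4.51) and 6.10 (from 3.56 to 11.4), beside 39.9% of genes (19.8% higher and 20% lower). On FPKM + 1 these values were 0.63 and 0.88, within 2-fold.

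**Figure D4:**
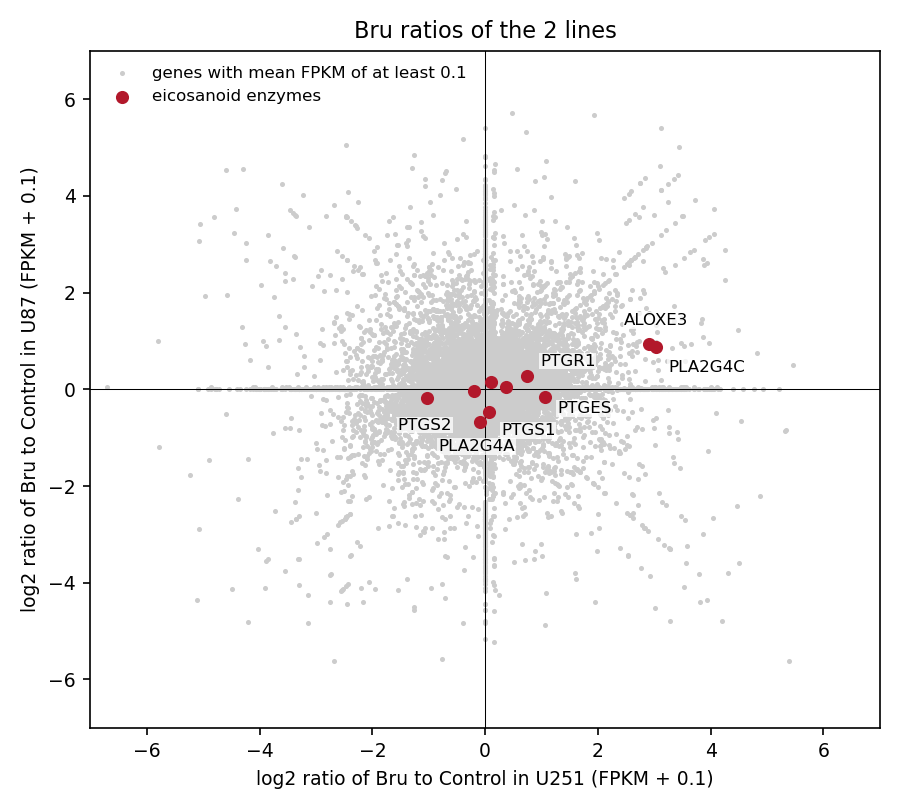
Log2 ratio, Bru over Control, on FPKM + 0.1 in U251 (horizontal) and U87 (vertical), with the 10 enzymes in red over all 22194 genes whose mean FPKM reached 0.1 in grey (PTGS1, below that mean, is drawn as well). PLA2G4C and ALOXE3 lay side by side at 3.02 and 2.91 in U251 and 0.88 and 0.94 in U87, and the other 8 lay between -1.04 and 1.06 in U251.

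The response of the 2 lines to Bru was compared as the U87 log2 ratio minus the U251 log2 ratio for the 6 enzymes with at least 10 reads in every library. The difference was -0.60 for PLA2G4A (interval from -1.11 to -0.09), 0.96 for PTGS2 (from 0.28 to 1.63), -0.32 for PTGES2 (from -0.47 to -0.17) and -0.48 for PTGR1 (from -0.67 to -0.30). The intervals of PTGES3 (0.05, from -0.02 to 0.11) and LTA4H (0.16, from -0.03 to 0.35) included 0. Below that minimum of reads, added after the values were seen, the difference was -3.21 for PLA2G4C (from -4.23 to -2.18) and -4.30 for ALOXE3 (from -6.68 to -1.91). It was -1.62 for PTGES (from -3.06 to -0.19) and -1.71 for PTGS1 (from -4.30 to 0.88), the last including 0. For PLA2G4C and ALOXE3 the lines lay nearer to each other in Bru than in Control, and U251 Control was the library that stood apart. These intervals hold for the 4 libraries and not for the lines.

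The genes with the pattern most like that of PLA2G4C and ALOXE3 were sought among 10845 protein-coding genes of mean FPKM 1 or more, by the Euclidean distance of the 4 values of log2(FPKM + 0.1) after each gene's own mean was removed. The nearest to PLA2G4C were HMOX1 (distance 0.55), the stress-induced heme oxygenase, NR1D1 (0.85), a heme-binding nuclear receptor of the circadian clock, and HIST1H2AC (0.89), a replication-dependent histone. HMOX1 FPKM was 14.0 (Control) and 163 (Bru) in U251, and 57.4 (Control) and 106 (Bru) in U87. The nearest to ALOXE3 were HIST1H2AC (0.34), SMIM11A (0.45), a small membrane protein gene with a near-identical copy that makes its reads uncertain, and TRAF1 (0.57), an adaptor of tumour necrosis factor receptors. Measured by their distance to each other, 4 of the 10845 genes were nearer to PLA2G4C than ALOXE3 was, and 9 were nearer to ALOXE3 than PLA2G4C was. The 0.1 added to FPKM lowers the U251 log2 ratio of PLA2G4C from 4.26 to 3.02 and that of ALOXE3 from 5.88 to 2.91. These distances depend on it and were not recomputed with another pseudocount. The likeness rests on 4 libraries and describes them only.

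The wider pathway held 84 other genes, grouped by role, of which 14 had no read in any library, 27 had at most 3 reads in every library and 32 had a mean FPKM of 1 or more. Of these 32, none was higher past 2-fold in Bru (3.36% of all genes were in U251 and 1.92% in U87), while 2 were lower in U251 (5.44% of all genes) and 1 in U87 (1.41% of all genes). FADS2 and MBOAT7 were the 2 in U251 and FADS2 the 1 in U87. On the log2 scale their median was -0.14 (U251) and -0.15 (U87), against -0.03 and -0.04 over all genes. At the lower minimum of 0.1, which PLA2G4C and ALOXE3 needed, 46 of the 84 passed, with 2 higher and 3 lower past 2-fold in U251 and 2 higher and 1 lower in U87, beside 8.03%, 8.76%, 7.33% and 5.29% of all genes in the same order. Some of these passed the minimum almost only through the library where they were high, as marked below, so nothing is read from these counts.

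The FPKM of the genes that make arachidonate and place it in membranes was lower in Bru for 7 of 7 in each line, beside 52.1% of all genes in U251 and 56.7% in U87, with medians of -0.80 and -0.25. The interval lay below 0 for 7 of them in U251 and for 6 in U87, where that of LPCAT3, which adds arachidonate to lysophospholipids, ran from -0.46 to 0.03. The share of all genes with an interval below 0 was not computed, so nothing is read from these 2 counts. FADS2, the delta-6 desaturase, went from an FPKM of 10.1 (Control) to 2.20 (Bru) in U251 and from 9.48 to 2.69 in U87, log2 ratios of -2.15 and -1.78 on FPKM + 0.1. MBOAT7, which attaches arachidonate to phosphatidylinositol, had log2 ratios of -1.02 and -0.25, and its U251 value was within 2-fold under each rescaling tried. ACSL4, which activates arachidonate with coenzyme A, was nearest to 0 in both lines, at -0.12 and -0.17. Of the 8 phospholipases and related lipases of mean FPKM 1 or more, none was past 2-fold in either line (8.8% of all genes were in U251 and 3.34% in U87), with a range from -0.83 to 0.61 in U251 and from -0.68 to 0.22 in U87. Among those with a mean between 0.1 and 1, and named with their values known, FAAH, which hydrolyses anandamide, had 32 (Control) and 80 (Bru) reads in U251. The secreted phospholipase PLA2G3 had 37 (Control) and 0 (Bru) in U251, and PLA2G2D, another secreted form, had 0 (Control) and 34 (Bru) in U87. These were past 2-fold, FAAH and PLA2G2D higher and PLA2G3 lower in Bru. PLA2G3 reached the mean of 0.1 almost only through U251 Control (FPKM 0.654), and PLA2G2D only through U87 Bru (FPKM 0.729). For these genes, being past 2-fold was nearly fixed by the filter, so nothing is read from it.

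Downstream genes of mean FPKM 1 or more stayed within 2-fold in both lines, namely 3 prostanoid synthases and reductases, 2 genes of leukotriene conversion, 2 of the cytochrome P450 branch, 4 receptors and 5 genes of transport and regulation, beside the 8.8% and 3.34% of all genes past it. With means between 0.1 and 1, the fatty acid hydroxylases CYP4F11, with 5 (Control) and 20 (Bru) reads in U251, and CYP4F3, with 1 (Control) and 38 (Bru) in U87, were higher past 2-fold. CYP4F3 reached the mean of 0.1 almost only through U87 Bru (FPKM 0.396), so its place past 2-fold was nearly fixed by the filter. ALOX12 was the 1 other lipoxygenase at that level, with log2 ratios of -0.09 and 0.05. The genes named next, and ALOX12, ACSL4, LPCAT3, CYP4F11 and CYP4F3, were chosen after their values were seen. The prostaglandin E2 receptor PTGER2 had 0 reads in both U251 libraries, a count that does not show absence, and 165 (Control) and 172 (Bru) reads in U87. PTGER4, another receptor of the same ligand, had 108 (Control) and 129 (Bru) reads in U251 and 78 (Control) and 127 (Bru) in U87. AKR1B1, an aldose reductase that can make prostaglandin F2 alpha, was at an FPKM of 62.5 (Control) and 69.4 (Bru) in U251 and 343 (Control) and 263 (Bru) in U87.

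**Figure D5:**
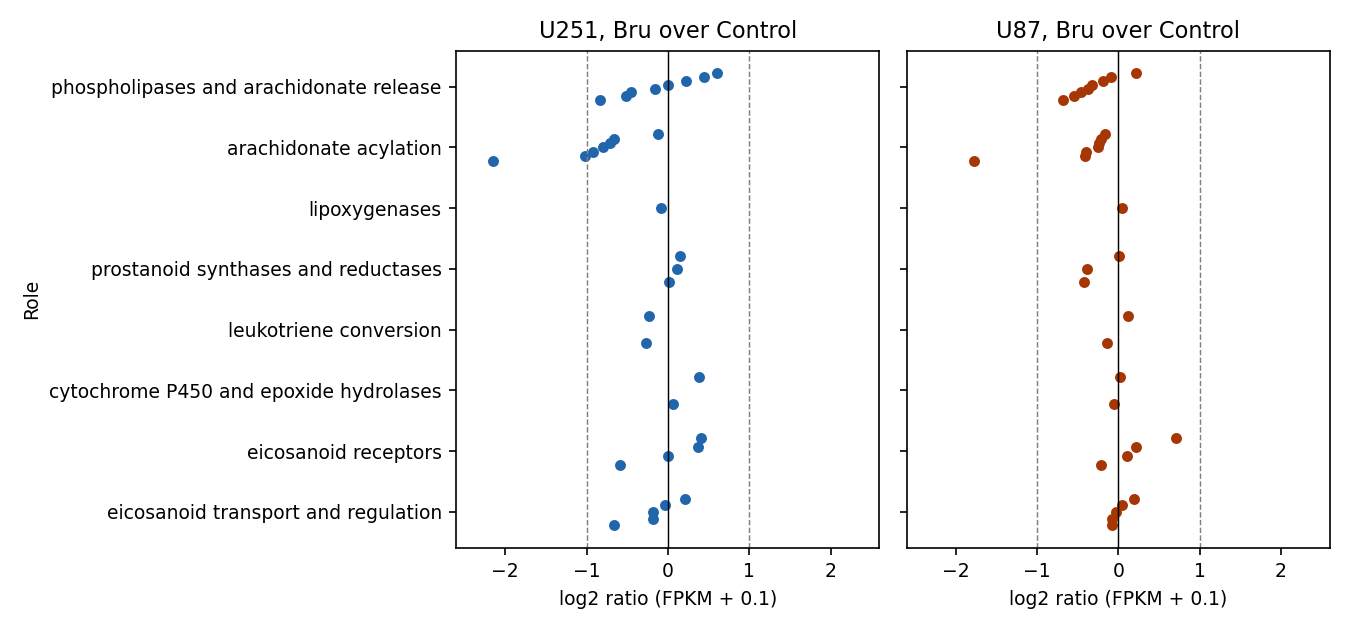
Log2 ratio, Bru over Control, on FPKM + 0.1 for the 32 genes of the wider pathway of mean FPKM 1 or more, 1 point per gene, by role and line, with dashed lines at 2-fold. All 7 genes of arachidonate acylation lay below 0 in both lines, FADS2 lowest at -2.15 in U251 and -1.78 in U87, and no gene lay above the upper line.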

How the data were processed

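RNA was taken from U251 and U87 cells with and without Bru, 1 library per condition, and sequenced as paired-end reads with the NEB Next Ultra kit. The authors deposited FPKM per gene with the gene lengths used. The submitters' processing notes name HISAT2 2.0.5, StringTie 1.3.3b and featureCounts 1.5.0-p3 and the build hg18, yet 58690 of the 58735 gene coordinates, those of all 10 enzymes among them, equal GENCODE 29 on GRCh38. The library sizes recovered from the FPKM were between 17406238 and 20974002.

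Log2 ratios used FPKM + 0.1 (a scale that understates changes of low genes) for counts, and FPKM alone with exact Clopper-Pearson intervals of the read share for single genes. The difference between lines added 0.5 to each read number and used the Poisson error. Genes were named as the 10 enzymes, as list members past 2-fold (up to 3 per list), and as the 3 nearest patterns, and the text marks those named outside this rule. Members and lists were chosen with earlier results of these data known. Alternatives were other pseudocounts, scalings and filters. Scripts ran in Python 3.11.15 with SciPy 1.17.1 and were tested on simulated data.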

Additional observations from a re-analysis of the deposited data

Results flagged for a closer look

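The log2 ratio of PTGES on FPKM + 0.1 was 1.06 in U251 and -0.15 in U87, in opposite directions. With no minimum of reads, the U87 value minus the U251 value was -1.62 (from -3.06 to -0.19, counting error only), and the difference was not tested over replicates. The U251 value rests on 5 reads in Control and 13 in Bru. The log2 ratio of PTGS1 was 0.06 in U251 and -0.48 in U87, also in opposite directions, with at most 7 reads in any library. The same difference was -1.71 (from -4.30 to 0.88), which includes 0, and it was not tested over replicates either.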

How the results depend on the processing

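Of the 180 recomputed log2 ratios of single enzymes, 9 moved by at least the distance from the middle of their counting interval to its end. That interval belongs to the ratio without a pseudocount, and this yardstick is wide for enzymes with few reads. ALOXE3 in U251 ranged from 0.79 to 5.06 and PLA2G4C from 1.07 to 4.06 with the pseudocount, and PTGES in U251 came to 0.28 with a pseudocount of 1. No log2 ratio past 2-fold changed sign. The filter on low FPKM changed the counts most. Past 2-fold in U251 were 1 of 6 enzymes at a minimum mean FPKM of 1, 0 with a pseudocount of 1, 4 of 9 at a minimum of 0.1 and 4 of 10 without a filter, and in U87 the count was 0 in each of these. Other pseudocounts were counted only for the 6 enzymes, and taken singly ALOXE3 (1.01) and PTGS1 (-1.37) were past 2-fold in U87 with a pseudocount of 0.01. Between the Control libraries the count was 2, and 4 without a filter or at a minimum of 0.1. Of the wider pathway, 2 genes were past 2-fold in U251, 5 without a filter or at a minimum of 0.1, and 1 with a pseudocount of 1, a median log2 ratio of 0, 75th percentile scaling, TPM or total reads, because MBOAT7 lay close to the limit. In U87 the count was 1, 4 without a filter and 3 at a minimum of 0.1. The difference of response between lines lay beyond counting error for 4 of 6 enzymes and for 7 of 10 without a minimum of reads, an alternative chosen after seeing the data, as was scaling by total reads, which gave 4. The share of all genes with a difference beyond counting error was not computed, so nothing is read from these counts. Depth limits PTGS1, ALOXE3 and PTGES in U251 Control most, at 1 to 6 reads. For LTA4H in U87 the log2 ratio ranged from -0.04 to 0.03 and changed sign with 3 rescalings. The labels carry no replicate numbers by which to pair libraries, and a fit of treatment over both lines with line as a block was not run. With 1 library per condition, none was left out.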
